A study of Mus musculus with 6 samples.

Results

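The genes described here are 34 markers of smooth muscle and fibroblasts, out of 39179 genes in the deposited table, read in the pylorus of mice with and without Sox2. They were taken by name: 13 encode proteins of the smooth muscle contractile apparatus, from Myh11 to Tpm2, and 21 encode collagens, matrix proteins and surface receptors of fibroblasts, from Col1a1 on. They were read library by library, with muscle and fibroblast genes apart, as a measure of the tissue left after the muscle layer had been taken off. The genotype of Sox2 WT mice was Rosa26WT; Sox2fl/fl and that of Sox2 KO mice was Rosa26CreER; Sox2 fl/fl, both on a mixed C57BL/6 x 129 background. Rosa26 is active in most cell types, so the tamoxifen-dependent Cre recombinase was not restricted to the epithelium. The mice of both groups received tamoxifen at 8 weeks of age and tissue was taken 2 weeks later, although the age label of each sample is 8 weeks. Pyloric tissue was held for 1 h in a cold cell recovery solution, the muscle was peeled away and RNA was taken from what remained, epithelium together with mesenchyme. Each group had 3 libraries. No library of the peeled muscle layer and no unpeeled pylorus was analysed here, so the values compare libraries with each other and give no share of muscle removed.

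The wall of the pylorus holds a thick outer muscle layer, which forms the sphincter, and a thin muscularis mucosae directly under the glands. Both layers, and the walls of blood vessels, are built of smooth muscle cells, in which myosin driven by a phosphorylated light chain pulls on actin filaments lined with tropomyosin and calponin. Serum response factor and its coactivator myocardin switch on most contractile genes through a DNA element called the CArG box. Fibroblasts lie between the glands and in the submucosa, secrete fibrillar collagens, collagen VI and proteoglycans, and carry receptors for platelet-derived growth factor. Several contractile genes, Acta2 and Tagln among them, are also used by myofibroblasts and pericytes, so they do not mark muscle layers alone.

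The deposited values are RPKM, read counts divided by transcript length and library size. Sox2, which encodes a transcription factor of stem cells, was at 9.03 to 11.1 RPKM in the Sox2 WT libraries and 0.210 to 0.420 in the Sox2 KO libraries, a log2 fold change of -3.72 (SE 0.147, limma adjusted p = 0.000293). By exact permutation of the 6 libraries (two-sided) p was 0.1, the smallest value that 3 against 3 allow. The reads recovered from the RPKM numbered 21923203 to 32455361 per library, as the smallest whole numbers that fit. Xist and Y-linked transcripts showed that Sox2 WT replicates 2 and 3 came from females and the remaining 4 libraries from males, so sex differed along with genotype. Whether each library came from its own animal is not stated in the labels, and p-values therefore measure the spread between these libraries. Of 14045 genes tested, 4 passed an adjusted p of 0.05 (0.0285%), 442 had an unadjusted p under 0.05 (3.15%) and 995 had groups that did not overlap (7.08%).

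Smooth muscle transcripts were plentiful in every library after peeling. Their amount differed between libraries of the same genotype, while the group means lay close together. Here and in what follows, values of a group stand in the order of its replicate numbers. The summed RPKM of the 13 muscle genes was 1075, 863 and 778 in Sox2 WT and 729, 992 and 1020.5 in Sox2 KO. The groups overlapped throughout: Sox2 WT replicate 1 was the highest library, Sox2 KO replicate 1 the lowest, and the highest sum was 1.47 times the lowest. The group means were 906 ± 153 (SD, n = 3) in Sox2 WT and 914 ± 161 (SD, n = 3) in Sox2 KO, a log2 ratio of 0.01. In bulk tissue, fewer muscle cells and less RNA per muscle cell cannot be told apart. Rescaling the libraries by median-of-ratios factors, to the same total RPKM or by quantiles left the same libraries highest and lowest, with 1.53, 1.90 and 1.66 times between them.

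**Figure D1:**
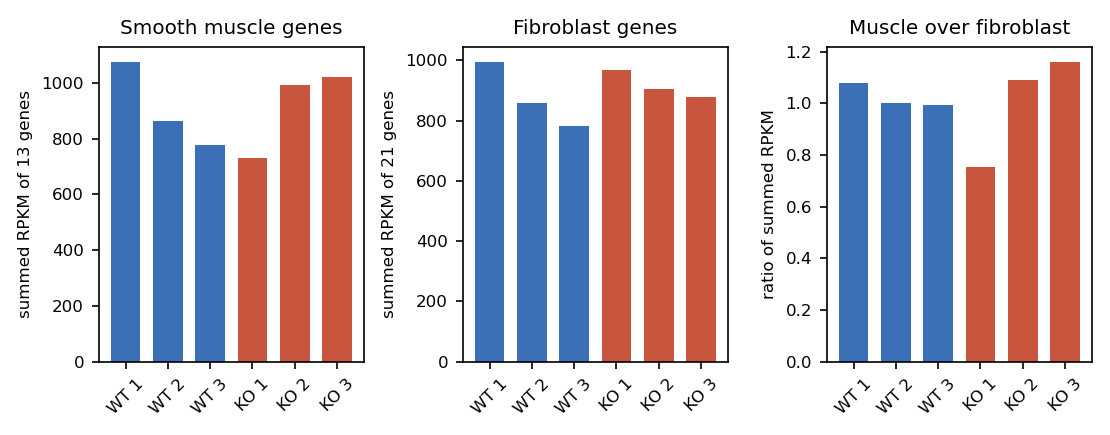
Summed RPKM of the 13 smooth muscle genes, summed RPKM of the 21 fibroblast genes, and the ratio of the muscle sum to the fibroblast sum, 1 bar for each library, with Sox2 WT in blue and Sox2 KO in red. The muscle sum runs from 729 in Sox2 KO replicate 1 to 1075 in Sox2 WT replicate 1 and the fibroblast sum from 783 to 995, so that the muscle bars differ more between libraries than the fibroblast bars, and in both panels the groups overlap.

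None of the 13 muscle genes passed the test between genotypes. Their median log2 fold change, Sox2 KO minus Sox2 WT, was 0.00, beside 0.02 over all genes tested. It ran from -0.23 for Synpo2 to 0.07 for Tpm2, with 6 genes above 0 and 7 below. The limma adjusted p was 1.00 for each gene, the smallest unadjusted p was 0.394, and no gene had groups that did not overlap. With a median SE of 0.236, the 95% intervals were wide: that of Actg2, from -0.85 to 0.60, was the widest, and that of Smtn, from -0.26 to 0.36, the narrowest. Leaving out 1 library at a time moved the median from -0.22 (without Sox2 WT replicate 3) to 0.16 (without Sox2 KO replicate 1). Against Sox2 WT replicate 1, the only male of its group, the median over the muscle genes was -0.47 and 12 of the 13 were lower in Sox2 KO. That library was itself the highest of the Sox2 WT libraries for 12 of the 13, against 25.9% of all genes tested. The share of all genes lower in this comparison is not given here.

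**Figure D2:**
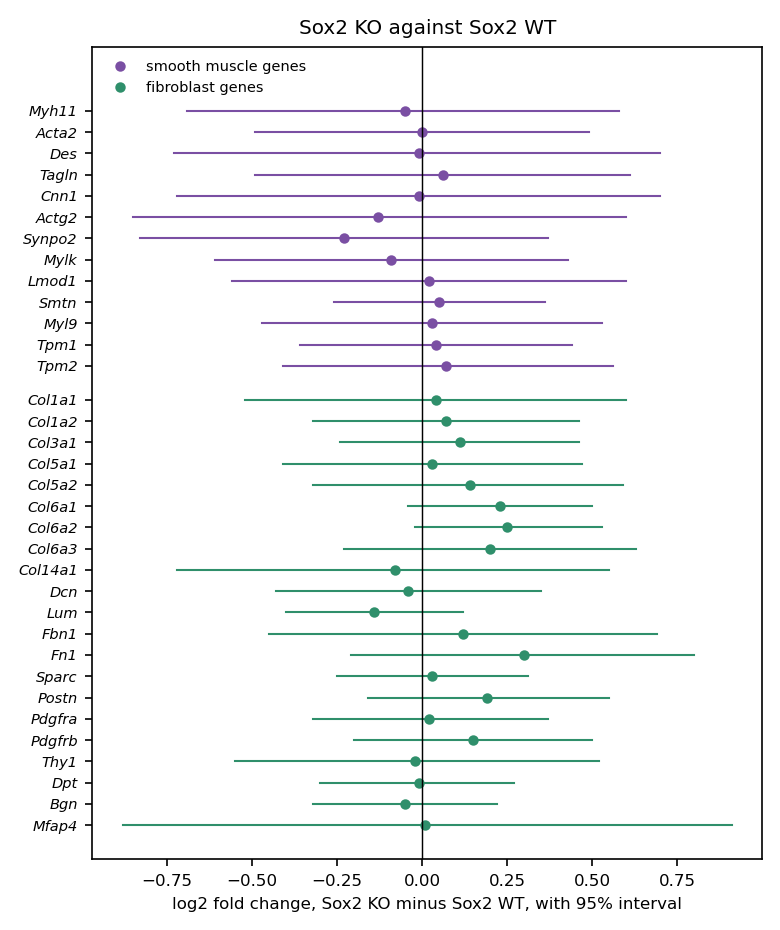
Difference of log2(RPKM + 0.5) between Sox2 KO and Sox2 WT (KO minus WT) for each of the 34 genes, with its 95% interval from limma; smooth muscle genes are in purple and fibroblast genes in green. Each interval includes 0, and Col6a2 (0.25, from -0.02 to 0.53) and Col6a1 (0.23, from -0.04 to 0.50) lie closest to excluding it.

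The 2 smooth muscle actins were among the 5 most abundant muscle genes. Acta2, which encodes vascular-type smooth muscle alpha-actin (chromosome 19, 34241090 to 34255590, minus strand, build GRCm38), was the highest of all, at 240.3, 201 and 171 RPKM in Sox2 WT and 157, 213 and 246 in Sox2 KO. The highest and the lowest of the 6 values were both in Sox2 KO. Its log2 fold change was 0.00 (SE 0.208, 95% interval -0.49 to 0.49). Actg2, the gamma-actin of visceral smooth muscle (chromosome 6, 83512905 to 83536265, minus strand), was at 113, 64.7 and 65.3 RPKM in Sox2 WT and 47.8, 80.6 and 95.4 in Sox2 KO. This was the widest range among the muscle genes, 2.36 times from Sox2 KO replicate 1 to Sox2 WT replicate 1, with a log2 fold change of -0.13 (SE 0.309). The level of Actg2 per unit of Acta2 was 0.470, 0.323 and 0.383 in Sox2 WT and 0.305, 0.378 and 0.388 in Sox2 KO. Visceral actin was therefore lower than alpha-actin in each library. Its share was highest in Sox2 WT replicate 1 and lowest in Sox2 KO replicate 1. These libraries had the highest and the lowest summed RPKM of the muscle genes, though single genes such as Myh11 were lowest elsewhere. The coding sequences of the 2 genes are 84.4% identical, with a longest identical run of 29 bases, and how the authors' counting treated reads that match both is not given in the sources used here.

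Myosin and its regulators showed the same high and low libraries in Sox2 WT. Myh11, the smooth muscle myosin heavy chain and the most specific marker of the list (chromosome 16, 14194535 to 14291372, minus strand), was at 58.5, 44.5 and 28.7 RPKM in Sox2 WT and 37.9, 51.9 and 34 in Sox2 KO. It differed 2.04 times within Sox2 WT alone, and the group means were 43.9 ± 14.9 in Sox2 WT and 41.3 ± 9.39 in Sox2 KO (SD, n = 3). Myl9, the regulatory light chain (chromosome 2, 156775420 to 156781658, plus strand), was at 119, 118 and 84.3 RPKM in Sox2 WT and 81.9, 127 and 120.4 in Sox2 KO. Here 4 libraries lay close together, while Sox2 WT replicate 3 and Sox2 KO replicate 1 were low. Mylk, the kinase that phosphorylates the light chain, ran from 11.2 RPKM in Sox2 WT replicate 3 to 19.7 in Sox2 WT replicate 1, with a log2 fold change of -0.09 (SE 0.222).

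Acta2 and Myl9 also show the promoter element through which contractile genes are known to be controlled. Promoters from RefSeq (build GRCm38.p6), each covering 250 bases before and 50 after a gene's start, matched 22 of the 34 genes. The CArG box was searched as a run of CC, 6 bases and GG, which reads the same on both strands, first with only A or T inside and then with 1 other base allowed. The first form was in 1.63% of 32851 mouse promoters and, among the muscle genes with a promoter, in 1 of 10, Myl9. The looser form was in 9.98% of all promoters, in 2 of the 10 muscle genes, Acta2 and Myl9, and in 2 of 12 fibroblast genes, Col1a2 and Col6a3. In Myl9 the boxes began 161 and 99 bases before the RefSeq start, and in Acta2 84 and 34 bases before it. A match of letters is a description of the sequence, and binding was not measured. The stretch with both boxes of Myl9 (chr2:156775273-156775394, plus strand) is shown 5′ to 3′ with the boxes in capitals. The 2 boxes of Acta2 with 10 bases on either side (chr19:34255438-34255467 and chr19:34255388-34255417, minus strand) are shown likewise. Both Acta2 boxes lie within the span that GENCODE gives the gene.
Myl9: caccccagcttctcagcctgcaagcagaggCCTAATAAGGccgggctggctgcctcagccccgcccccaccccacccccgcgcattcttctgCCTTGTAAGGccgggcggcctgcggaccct
Acta2, upstream box: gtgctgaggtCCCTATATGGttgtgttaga
Acta2, downstream box: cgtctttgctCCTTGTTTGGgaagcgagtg

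Among the actin-binding proteins, Tagln, which encodes transgelin (chromosome 9, 45929619 to 45936058, minus strand), was second in level. It was at 206, 178 and 136 RPKM in Sox2 WT and 132, 192 and 224 in Sox2 KO, with a log2 fold change of 0.06 (SE 0.236). The 6 libraries stood in the same order as for Acta2, with the highest and lowest values both in Sox2 KO. Exons of Tagln overlap those of Pcsk7 and of a predicted gene on the opposite strand, and how strand was treated in the counting is not given in the sources used here. Cnn1, which encodes calponin, ran from 23.0 RPKM in Sox2 KO replicate 1 to 49.1 in Sox2 WT replicate 1. Smtn, which encodes smoothelin, was the steadiest muscle gene, from 13.7 to 17.4 RPKM, 1.27 times. Lmod1, which encodes leiomodin, a protein that starts actin filaments, ran from 4.71 RPKM in Sox2 WT replicate 3 to 9.85 in Sox2 WT replicate 1.

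The genes of the intermediate filament and of actin bundling had wide ranges. Des, which encodes desmin, was at 39.9, 25.2 and 20.4 RPKM in Sox2 WT and 18.3, 34.1 and 31.7 in Sox2 KO, 2.18 times from end to end. Sox2 WT replicate 1 alone was above each Sox2 KO library, and the other Sox2 WT libraries lay among them. Synpo2, which encodes the actin-bundling protein myopodin (chromosome 3, 123076519 to 123236149, minus strand), had the lowest mean level and the most negative fold change of the muscle genes. It was at 5.02, 3.38 and 2.57 RPKM in Sox2 WT and 2.60, 4.03 and 2.40 in Sox2 KO, a log2 fold change of -0.23 (SE 0.255, limma adjusted p = 1.00). The groups overlapped, with the second highest value in Sox2 KO replicate 2.

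The tropomyosins, which line the actin filament, went separate ways. Tpm2 (chromosome 4, 43514711 to 43523765, minus strand) followed the other muscle genes, at 55.1, 42.5 and 40.5 RPKM in Sox2 WT and 35.8, 55.8 and 55.4 in Sox2 KO. Tpm1 (chromosome 9, 67022590 to 67049406, minus strand), whose isoforms are made in many cell types besides muscle, was at 143, 119 and 175 RPKM in Sox2 WT and 162, 154 and 131 in Sox2 KO. Sox2 WT replicate 3 and Sox2 KO replicate 1, low for nearly all other muscle genes, were the highest libraries for Tpm1. The ratio of Tpm1 to Tpm2 was 4.32 and 4.53 in those libraries and 2.36 to 2.81 in the other 4. Krt8, an epithelial keratin, was highest in the same libraries, at 1946 RPKM in Sox2 WT replicate 3 and 1572 in Sox2 KO replicate 1. Other epithelial genes stood otherwise: Krt18 and Epcam were highest in Sox2 KO replicate 3, at 885 and 249.5 RPKM. The part of epithelial transcript in the level of Tpm1 was not tested. The coding sequences of the tropomyosins are 73.5% identical, with identical runs of up to 35 bases. Without Tpm1, the summed RPKM of the remaining 12 genes ran from 567 to 933, 1.64 times instead of 1.47.

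**Figure D3:**
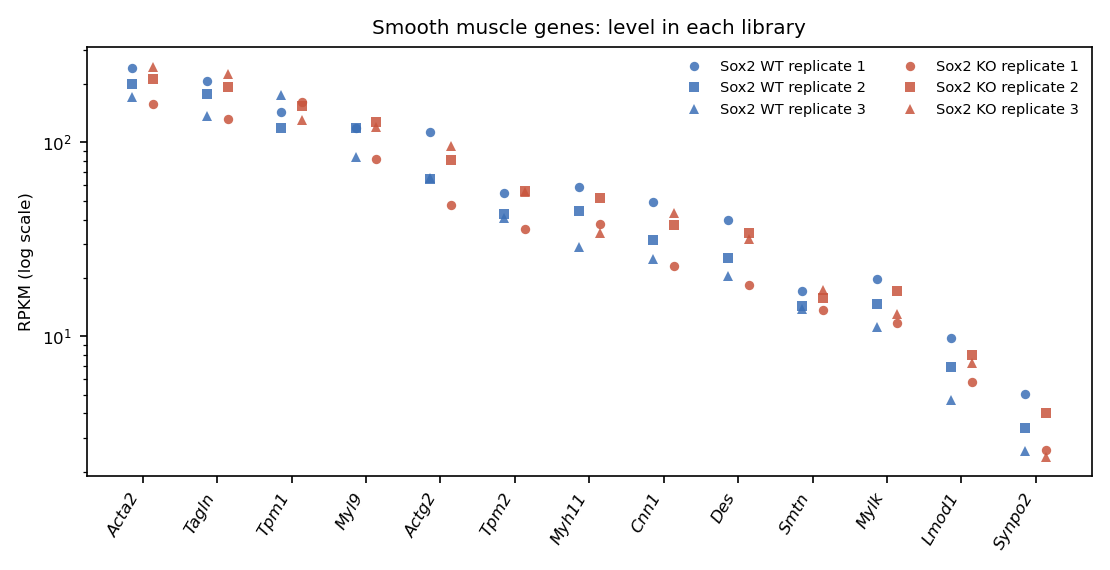
RPKM on a log axis of the 13 smooth muscle genes, ordered by mean level, with 1 symbol for each library (blue Sox2 WT, red Sox2 KO, circle, square and triangle for replicates 1 to 3). The blue circle of Sox2 WT replicate 1 is the highest of its group for 12 of 13 genes and the red circle of Sox2 KO replicate 1 the lowest of its group for 10 of 13; for Tpm1 both are placed otherwise.

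Counted gene by gene, Sox2 WT replicate 1 was the highest of the 3 Sox2 WT libraries for 12 of 13 muscle genes, against 25.9% of all genes tested. Sox2 WT replicate 3 was the lowest of them for 11 of 13, against 30.4% of all genes. Within Sox2 KO, replicate 1 was the lowest for 10 of 13, against 37.2% of all genes. The spread between libraries of a group was larger than for most genes: the within-group SD on the log2 scale had a median of 0.348 over the muscle genes and 0.182 over all genes tested, and 12 of the 13 were above the latter. Counting error was small beside this spread, since each muscle gene had at least 474 recovered reads in each library and Tpm1 had up to 29827.

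Sox2 KO replicates 2 and 3 divided the muscle genes by transcript length. Of the 4 muscle genes in the shortest quartile of annotated exon length (Acta2, Tagln, Actg2 and Myl9), 3 were higher in replicate 3, all but Myl9, while the 4 in the longest quartile (Myh11, Synpo2, Mylk and Tpm1) were all higher in replicate 2. The genes of middle length were split: Des, Lmod1 and Tpm2 were higher in replicate 2, and Cnn1 and Smtn in replicate 3. The median deviation of replicate 3 from the mean of the 6 libraries was 0.32 (log2) for the short genes and -0.22 for the long ones. Over all genes tested, replicate 3 showed the same order with smaller values, 0.15 in the shortest quartile and -0.13 in the longest, while the medians of the other libraries lay between -0.11 and 0.08. Length therefore moved with the level in this library across the whole table. Medians ran the other way in Sox2 KO replicate 1, from -0.06 in the shortest quartile to 0.08 in the longest. In Sox2 WT replicate 1 they ran from -0.11 to 0.04. The part of length in the muscle values was not tested.

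As a set, the 8 tested regulators of the smooth muscle program were steadier than the contractile genes, with a median within-group SD of 0.145 (log2). Of 11 listed regulators, 10 were in the table and 8 passed the filter on low values, and none passed the test; their median log2 fold change was -0.01. Srf, which encodes serum response factor, was at 11.8, 10.9 and 12.9 RPKM in Sox2 WT and 11.8, 11.4 and 12.9 in Sox2 KO. Barx1, a homeobox gene of stomach mesenchyme, ran from 12.8 to 16.6 RPKM, and Gata6, also used by the epithelium, from 33.6 to 39.7. The median deviation of Sox2 WT replicate 1 over the 8 tested regulators was 0.01, against 0.45 over the muscle genes. The 2 regulators under the filter, which were not tested, were highest in that library. Myocd, which encodes myocardin, was at 0.688 RPKM there and 0.180 to 0.353 in the other 5, with a within-group SD of 0.319 (log2). Nkx3-2, a homeobox gene of gut mesenchyme, was at 0.896 RPKM there and 0.362 to 0.432 in the other 5.

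The 24 further contractile and channel genes included some that other cells also use. Of the 20 that passed the filter, none passed the test, 6 had a fold change above 0 and 14 below, and the median was -0.05. The most abundant, Csrp1, a LIM-domain protein, ran only from 168 to 192 RPKM. Flna, which encodes filamin, was at 46.5, 37.4 and 27.6 RPKM in Sox2 WT and 31.7, 39.9 and 31.0 in Sox2 KO with the 6 libraries in the same order as for Myh11. Ppp1r12a, which targets myosin phosphatase, ran from 16.6 to 27.6 RPKM and was lowest in Sox2 KO replicate 3. Pde5a, a cyclic GMP phosphodiesterase, was the 1 gene of the 20 tested with groups that did not overlap (all genes, 7.08%), at 9.31 to 10.9 RPKM in Sox2 WT and 7.98 to 8.85 in Sox2 KO, with a log2 fold change of -0.20 (SE 0.109, limma adjusted p = 1.00). Kcnma1, the pore of a calcium-activated potassium channel, was under the filter and also did not overlap, at 0.431 to 0.612 RPKM in Sox2 WT and 0.265 to 0.409 in Sox2 KO.

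The summed RPKM of the fibroblast genes was near that of the muscle genes and more even between libraries. A sum depends on which genes are listed and how many, so the nearness of the sums does not compare amounts of tissue. The summed RPKM of the 21 genes was 995, 860.2 and 783 in Sox2 WT and 968, 906 and 878 in Sox2 KO. The 3 Sox2 KO libraries lay within the range of the Sox2 WT libraries, and the highest sum was 1.27 times the lowest. The means were 879.5 ± 108 (SD, n = 3) in Sox2 WT and 917 ± 46.1 (SD, n = 3) in Sox2 KO, a log2 ratio of 0.06. None of the 21 genes passed the test or had an unadjusted p under 0.05. Their median log2 fold change was 0.04, from -0.14 for Lum to 0.30 for Fn1, with 15 genes above 0 and 6 below. Over all 14045 genes tested, 7980 were above 0 and 6065 below. The groups did not overlap for 1 gene of 21, Col6a2, beside 7.08% of all genes. Against Sox2 WT replicate 1, the male library, the fibroblast median was -0.12 and 17 of the 21 were lower in Sox2 KO, and sex and genotype cannot be told apart in the female libraries. That male library was the highest of the Sox2 WT libraries for 13 of the 21, against 25.9% of all genes tested. Without Sox2 WT replicate 1 the median was 0.21, and without Sox2 WT replicate 3 it was -0.06. Scaling each library to the same total RPKM moved the median of all genes to -0.09, and 13 of the 21 fibroblast genes and all 13 muscle genes were then below 0.

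The fibrillar collagens make up the fibres of the submucosa. Col3a1, the collagen III chain (chromosome 1, 45311538 to 45349706, plus strand), was the most abundant fibroblast gene, at 175, 129 and 137 RPKM in Sox2 WT and 171, 154 and 148 in Sox2 KO. Its log2 fold change was 0.11 (SE 0.151, 95% interval -0.24 to 0.46). The collagen I chains Col1a1 and Col1a2, which are assembled together, were both highest in Sox2 WT replicate 1 and lowest in Sox2 WT replicate 3. Col1a1 was at 64.6, 44.6 and 34.2 RPKM in Sox2 WT and 58.0, 42.0 and 43.8 in Sox2 KO, and Col1a2 was at 55.2, 41.9 and 37.4 in Sox2 WT and 52.9, 44.6 and 42.6 in Sox2 KO. The ratio of the first chain to the second stayed between 0.914 and 1.17 while each chain alone differed by 1.89 and 1.48 times. Col3a1 was 2.71 to 4.00 times Col1a1, highest in Sox2 WT replicate 3. The collagen V chains were lower, Col5a1 at 11.5 to 17.7 RPKM and Col5a2, the neighbour of Col3a1 on chromosome 1, at 12.7 to 22.0. Each of the 5 fibrillar genes had a fold change above 0, with a median of 0.07 and overlapping groups. Against the male Sox2 WT replicate 1 each was below 0, from -0.44 for Col1a1 to -0.02 for Col5a2.

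Col6a2 and Col6a1, chains of the collagen VI that forms beaded filaments around cells, had the smallest p-values of the 34 genes. Col6a2 (chromosome 10, 76595762 to 76623630, minus strand) was at 35.4, 28.3 and 29.6 RPKM in Sox2 WT and 39.2, 36.3 and 35.6 in Sox2 KO. The lowest Sox2 KO value exceeded the highest Sox2 WT value only slightly, and the log2 fold change was 0.25 (SE 0.119, unadjusted p = 0.0678 and adjusted p = 1.00 by limma). Its neighbour Col6a1 (chromosome 10, 76708792 to 76726168, minus strand) was at 62.6, 53.0 and 53.0 RPKM in Sox2 WT and 69.8, 65.9 and 61.8 in Sox2 KO, a log2 fold change of 0.23 (SE 0.116, unadjusted p = 0.0877 by limma). Sox2 WT replicate 1 lay among the Sox2 KO libraries here. Col6a3 lies on chromosome 1 and had 7.19, 4.61 and 5.63 RPKM in Sox2 WT and 8.08, 6.07 and 6.01 in Sox2 KO, a log2 fold change of 0.20 (SE 0.184, unadjusted p = 0.306 by limma). The 3 chains, which form 1 molecule, were each highest in Sox2 KO replicate 1 and lowest in Sox2 WT replicate 2. Against the male Sox2 WT replicate 1 their fold changes were 0.07 for Col6a1, 0.06 for Col6a2 and -0.10 for Col6a3, and the lowest 2 values of each chain were those of the female libraries.

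The proteoglycans that coat collagen fibres were level between groups. Dcn, which encodes decorin, was at 104, 121 and 79.3 RPKM in Sox2 WT and 98.8, 99.9 and 93.2 in Sox2 KO. Lum, which lies beside Dcn on chromosome 10 and encodes lumican, was at 16.3, 16.6 and 16.6 RPKM in Sox2 WT and 13.4, 16.8 and 14.8 in Sox2 KO. Its log2 fold change of -0.14 (SE 0.111) was the most negative of the fibroblast genes, and the highest value was nevertheless in Sox2 KO. Bgn, which encodes biglycan, was the steadiest of the 34 genes, from 55.1 to 65.9 RPKM, 1.20 times. Dpt, which encodes the matrix protein dermatopontin, was second among the fibroblast genes, at 117, 104 and 94.2 RPKM in Sox2 WT and 100, 102 and 109 in Sox2 KO, with a log2 fold change of -0.01 (SE 0.122).

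Glycoproteins and microfibril proteins of the matrix differed in how much they varied between libraries. Fn1, which encodes fibronectin (chromosome 1, 71585520 to 71653200, minus strand), had the largest positive fold change of the 34 genes, at 18.7, 15.1 and 13.1 RPKM in Sox2 WT and 20.7, 23.9 and 14.1 in Sox2 KO. Sox2 KO replicate 3 lay below 2 of the Sox2 WT libraries, and the log2 fold change of 0.30 (SE 0.214, 95% interval -0.21 to 0.80) was within the spread. Postn, which encodes periostin, was at 91.6, 65.4 and 80.3 RPKM in Sox2 WT and 97.1, 82.3 and 90.0 in Sox2 KO, a log2 fold change of 0.19 (SE 0.150). Sparc, a collagen-binding protein, was steady at 88.5 to 107 RPKM. Fbn1, which encodes fibrillin of elastic microfibrils, ran from 2.38 to 5.10 RPKM, with Sox2 WT replicate 1 at the top as for muscle. Mfap4, another microfibril protein, was at 10.0, 17.0 and 5.33 RPKM in Sox2 WT and 9.38, 13.1 and 7.77 in Sox2 KO. It had the widest range of the 34 genes, 3.19 times, with both extremes in the female Sox2 WT libraries and a fold change of 0.01. Col14a1, a collagen that decorates fibrils, was lowest in the same library as Mfap4, at 1.68 RPKM in Sox2 WT replicate 3, and reached 3.62 in Sox2 WT replicate 2, with a log2 fold change of -0.08 (SE 0.272).

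**Figure D4:**
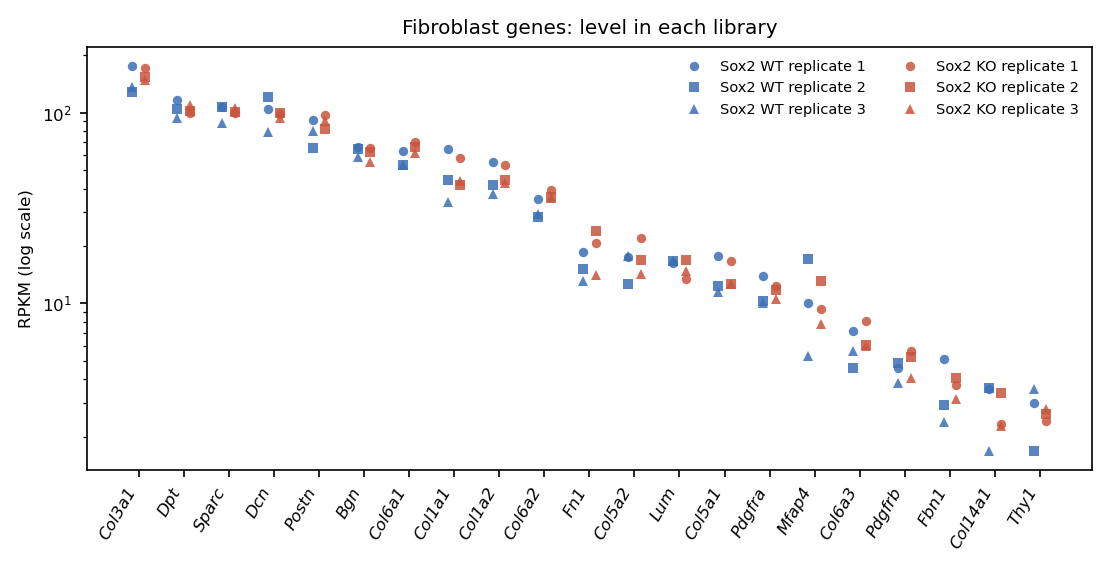
RPKM on a log axis of the 21 fibroblast genes, ordered by mean level, with 1 symbol for each library (blue Sox2 WT, red Sox2 KO, circle, square and triangle for replicates 1 to 3). Symbols of Bgn, Dpt and Sparc nearly coincide, those of Mfap4 are spread over 3.19 times, and only for Col6a2 do all red symbols lie above all blue ones.

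The receptors for platelet-derived growth factor mark different stromal cells. Pdgfra, used by fibroblasts and telocytes, was at 13.9, 10.3 and 10.0 RPKM in Sox2 WT and 12.3, 11.7 and 10.5 in Sox2 KO, with a log2 fold change of 0.02 (SE 0.147). Pdgfrb, strongest in pericytes, was at 4.56, 4.85 and 3.85 RPKM in Sox2 WT and 5.65, 5.25 and 4.08 in Sox2 KO, with a log2 fold change of 0.15 (SE 0.149). Pdgfra was the higher of the receptors in each library, by 2.11 to 3.04 times. Thy1, a surface glycoprotein of fibroblasts that T cells and neurons also carry, was the lowest of the 34 genes in level, at 1.69 to 3.58 RPKM, and rested on 82 to 165 recovered reads.

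The fibroblast genes ordered the libraries less uniformly than the muscle genes did. Sox2 WT replicate 1 was the highest of its group for 13 of 21 genes and Sox2 WT replicate 3 the lowest for 13 of 21. Within Sox2 KO, replicate 1, the lowest for most muscle genes, was the highest for 12 of 21 fibroblast genes, against 39.5% of all genes. Replicate 3 was the lowest for 15 of 21, against 41.8% of all genes. The median deviation from the mean of the 6 libraries was 0.17 (log2) in Sox2 KO replicate 1 for fibroblast genes and -0.37 for muscle genes. The median within-group SD was 0.221, between the 0.348 of the muscle genes and the 0.182 of all genes. Of the 21 fibroblast genes, 12 were in the longest quartile of exon length. Their median deviation was 0.22 in Sox2 KO replicate 1 and -0.10 in Sox2 KO replicate 3. Over all genes tested of that quartile it was 0.08 and -0.13, and over its 4 muscle genes -0.19 and -0.22. The part of length in the fibroblast values was not tested.

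**Figure D5:**
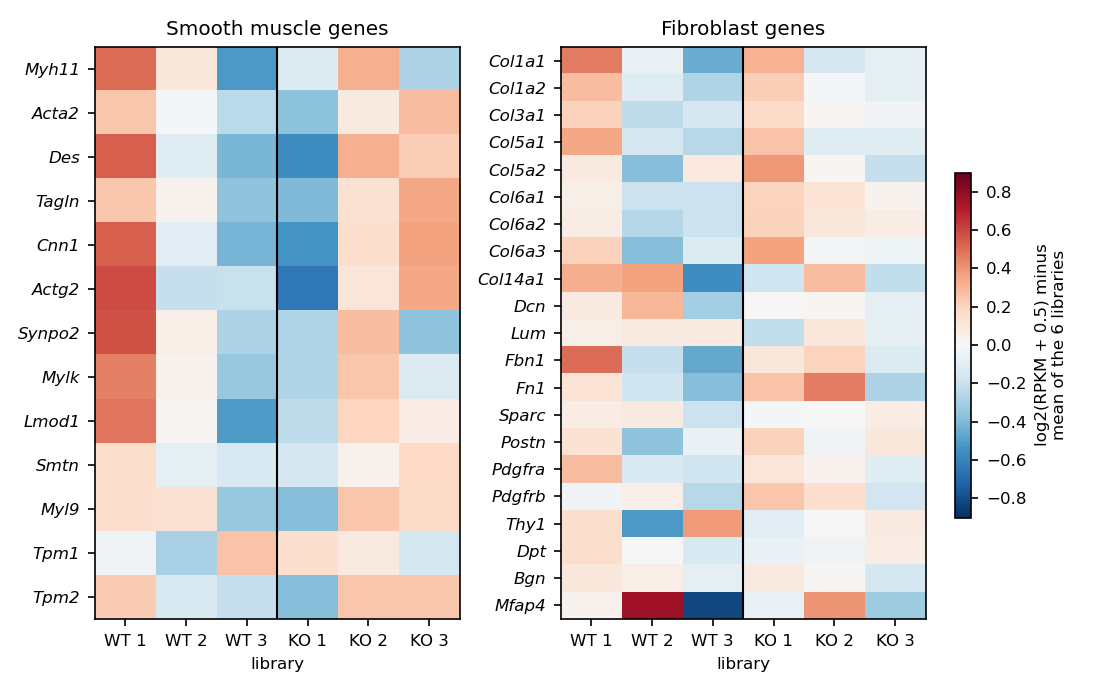
Deviation of log2(RPKM + 0.5) in each library from the mean of the 6 libraries, for the smooth muscle genes (left) and the fibroblast genes (right), red above and blue below the mean. Sox2 WT replicate 1 is above the mean for 12 of the 13 muscle genes, Sox2 KO replicate 1 is below it for 12 of 13, all but Tpm1 (median -0.37), and mostly above it for fibroblast genes (median 0.17), and no column pattern divides Sox2 WT from Sox2 KO.

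The balance of muscle to fibroblast transcript was lowest in Sox2 KO replicate 1. The muscle sum was 1.08, 1.00 and 0.994 times the fibroblast sum in Sox2 WT, and 0.753, 1.09 and 1.16 times in Sox2 KO. The other 5 libraries lay closer together, but this rested on Tpm1. Without Tpm1 the ratio was 0.937, 0.865 and 0.771 in Sox2 WT and 0.586, 0.925 and 1.01 in Sox2 KO, so that Sox2 WT replicate 3 was also lower than the remaining 4 libraries. Set against 5 epithelial genes (Epcam, Cdh1, Krt8, Krt18 and Krt19), muscle transcript was 0.242, 0.244 and 0.125 times the epithelial sum in Sox2 WT and 0.142, 0.199 and 0.197 times in Sox2 KO. Fibroblast transcript was 0.224, 0.244 and 0.125 times the epithelial sum in Sox2 WT and 0.189, 0.182 and 0.170 times in Sox2 KO. By this measure Sox2 WT replicate 3 was low in both muscle and fibroblast transcript, while Sox2 KO replicate 1 was low in muscle alone. The epithelial genes themselves differed between libraries, Krt19 from 1504 RPKM in Sox2 WT replicate 2 to 2918 in Sox2 WT replicate 3, and their part in the muscle and fibroblast levels was not tested.

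Most other stromal genes were lowest in Sox2 WT replicate 3 as well, though not the 2 most abundant ones, Gsn and Vim. Of 28 further matrix and fibroblast genes none passed the test, and the median log2 fold change was 0.01. Their most abundant members were Gsn, an actin-severing protein also made by epithelium, at 400.0 to 497 RPKM, Vim, the mesenchymal intermediate filament, at 54.5 to 66.7, and Mgp, a calcification inhibitor, at 34.5 to 78.1. Vim was highest in Sox2 WT replicate 3 and Gsn, at 476 RPKM there, was not low. Sox2 WT replicate 3 was the lowest library for 17 of the 28, against 16.6% of all genes tested. It was also the lowest for all 6 genes of pericytes and vascular mural cells, among them Rgs5 at 31.5 RPKM against 42.2 to 53.1 in the other 5 libraries, Mcam and Kcnj8. The same library was lowest for 7 of 8 endothelial genes, with Pecam1 at 7.89 RPKM against 9.93 to 12.5, Eng at 5.70 against 5.81 to 7.46 and Cdh5 at 3.52 against 4.11 to 5.45. None of the pericyte or endothelial genes passed the test, and their part in the muscle values was not tested.

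Transcripts of several cell types of the deep wall were at low levels; without an unpeeled pylorus, what peeling contributed was not measured. Of enteric neurons and glia, whose larger plexus lies between the muscle layers, S100b was at 0.767 to 1.45 RPKM and Uchl1 at 0.590 to 0.907. The neuronal genes Elavl4, Nos1 and Chat were at or below 0.181 RPKM in each library. The 13 genes of this list summed to 4.07, 4.05 and 3.66 RPKM in Sox2 WT and 3.48, 3.51 and 3.37 in Sox2 KO. Each Sox2 KO sum was thus below each Sox2 WT sum, though most of the 13 were under the filter. Single genes with groups that did not overlap made up 7.08% of all genes tested. The 5 mesothelial genes, which mark the outer surface of the stomach, summed to 0.496, 0.861 and 0.437 RPKM in Sox2 WT and 1.15, 0.863 and 1.35 in Sox2 KO. Each Sox2 KO sum was above each Sox2 WT sum, Sox2 KO replicate 2 only barely, but all 5 genes were under the filter and were not tested. Upk1b, Msln and Upk3b were the highest of them, and Wt1 was listed at 0 in 3 libraries. Of the interstitial cells of Cajal, Kit, which mast cells also use, was at 1.51 to 3.41 RPKM and Etv1 at 0.620 to 1.40. Ano1, the chloride channel of these cells, was at 18.2 to 32.4 RPKM, a gene that epithelial cells also transcribe. Among skeletal muscle genes, the fast myosins Myh1, Myh2 and Myh4 were listed at 0 in each library, while Tnni2 was at 18.4 to 30.1 RPKM, Mylpf at 1.51 to 2.35 and Ckm, a creatine kinase that smooth muscle also holds, at 0.306 to 1.91. Ckm was highest in Sox2 WT replicate 1 and lowest in Sox2 WT replicate 3, with the 6 libraries in the same order as for Mylk. Leukocyte genes were led by Lyz2 (38.4 to 87.7 RPKM), C1qb and Cd68, and epithelial genes by the gastric surface products Tff1 and Gkn1 and by Krt19. None of the genes of these lists that could be tested passed between genotypes: 3 of 13 for enteric neurons and glia, 0 of 5 for mesothelium, 3 of 3 for interstitial cells, 4 of 8 for skeletal muscle, 4 of 6 for leukocytes and 11 of 11 for epithelium reached the filter.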

How the data were processed

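RNA sequencing of mouse pylorus was compared between 3 Sox2 KO and 3 Sox2 WT libraries, grouped by genotype label. The authors deposited RPKM values for 39179 genes; the submitters' processing notes name CASAVA 1.7, STAR and mm10, with the counting tool, annotation and strandedness not given in the sources used here. Single-library tables equalled the series table in 6 of 6 columns. Whole reads were recovered from the RPKM (100% of 23538 genes above 0, tolerance 0.0001). They are the smallest numbers that fit and may be too low by a common factor, so depth is a lower limit.

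For symbols on several rows, 253 rows were left out and the highest mean was kept. log2(RPKM + 0.5) was tested with limma 3.58.1 (R 4.3.3, variance trend, Benjamini-Hochberg adjustment, threshold 0.05) over genes whose mean RPKM reached 0.5, checked on simulated data. Fold changes on this scale understate low genes. All 34 genes passed the filter. Positions came from GENCODE M21 (GRCm38, which is mm10), whose exons overlap another gene in 10 of the 34. The members and lists were chosen with earlier results of these data known. Given in full were, per list, the 5 highest, the 2 largest changes each way and close paralogs, and 3 genes per further list. Some genes that this rule takes in are not reported here. Myocd, Nkx3-2, Pde5a, Kcnma1, Krt8, Krt18, Epcam, the ratio without Tpm1 and the length comparison (lengths for 99.2% of genes tested) were chosen after values were seen. Alternatives were other pseudocounts, filters, scalings and variance settings, a replicate block, libraries left out, sex as a covariate, male libraries alone, and voom on the recovered reads.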

Additional observations from a re-analysis of the deposited data

How the results depend on the processing

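None of the 34 genes passed the threshold under any of the 19 alternatives, with a smallest limma adjusted p of 0.958. Of 646 values of a gene under an alternative, 603 lay within 1 within-group SD of the value given and 43 did not: 5 when each library was scaled to the same total RPKM, 19 with sex as a covariate and 19 in male libraries alone, where the Sox2 KO libraries are set against Sox2 WT replicate 1, assumed to vary like them. The filters, variance settings and replicate block cannot change a fold change of these genes, so their values lie among the 603 by design. Both females are Sox2 WT, so sex as a covariate gives the same fold changes as male libraries alone, and the same 19 values moved. The median log2 fold change was -0.47 for muscle genes and -0.12 for fibroblast genes, and rests on 1 Sox2 WT library. Leaving out 1 library gave -0.22 to 0.16 for muscle and -0.06 to 0.21 for fibroblast genes, and without Sox2 WT replicate 1 there were 3 fibroblast genes with an unadjusted p under 0.05, and 1 without Sox2 KO replicate 3. The log2 ratio of the fibroblast sums was -0.08 after scaling to the same total RPKM and -0.12 in male libraries alone; that of the muscle sums was -0.12 and -0.23, and -0.08 to 0.16 with a library left out.

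Over all genes, 4 passed; 7 did after scaling to the same total RPKM, 8 with voom on the recovered reads, 1 with sex as a covariate, and 1 to 8 with a library left out. With male libraries alone limma called 0 genes, with 583 at an unadjusted p under 0.05, and the log2 fold change of Sox2 was -3.82 (adjusted p = 0.154, against 0.0277 with sex as a covariate and 0.000798 with voom). The cause was not tested. With the replicate number as a block 1 gene passed; same-numbered libraries correlated by 0.01, 0.10 and -0.07 in their deviations, so the numbers were not taken as pairs. Summed levels have no value under pseudocount, filter or variance settings, the block, the sex covariate or voom. With 3 libraries a group, muscle differences of the size of the intervals given were not detectable. Thy1 rested on the fewest reads.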
